A study of Mus musculus with 9 samples.

Results

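The 10 genes described here, Cd52, Cd53, Tyrobp, Fcer1g, Lcp1, Coro1a, Laptm5, Rac2, Alox5ap and Adam8, are leukocyte genes that were picked by name because they were thought to be split between the libraries of very small embryonic-like stem cells (VSEL). They are 10 of 18193 measured genes, read by 19 of 45101 probe sets that the platform annotation assigns to their symbols. VSEL are rare small cells of adult marrow described as resembling embryonic cells. VSEL (3 arrays) and haematopoietic stem cells (HSC, 3 arrays) were sorted from bone marrow of C57BL/6 mice aged 4 weeks as Sca-1-positive, lineage-negative cells, VSEL without and HSC with the surface antigen CD45. ESC-D3 (ESC, 3 arrays) is an embryonic stem cell line of strain 129S2/SvPas that was kept on 0.1% gelatin with 10 ng/ml leukaemia inhibitory factor. Each array carried a PCR-amplified library of 20 sorted cells, and no label states if a group's libraries stem from different animals or dishes. Each p-value therefore measures library-to-library spread that may be technical. Values are log2 RMA values.

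VSEL arrays 2 and 3 correlated at r = 0.989 over probe sets, and 1 probe set differed between them by more than 4-fold. VSEL 1 differed from them by that much at 4148 and 4232 probe sets, and pairs within HSC or ESC at 1565 to 2898. VSEL 2 and 3 therefore differed far less than any other pair and were averaged as 1 library, called VSEL 2+3. A contrast between the VSEL libraries then sets 1 library against 1 and has no replicate check. Ptprc, which encodes CD45, fitted the gate, with 3.26 and 3.24 on VSEL 2 and 3 and 3.59 on VSEL 1, against 13.40 to 13.68 on the HSC arrays and 2.94 to 3.17 on the ESC arrays. Sca-1 (Ly6a) was not analysed here. On the HSC arrays the 5 measured stem cell genes Kit, Cd34, Hlf, Procr and Mecom averaged 8.34, 7.29, 5.42, 5.30 and 4.91. The T cell genes Cd3g, Cd3d and Cd3e averaged 12.82, 12.38 and 8.03 there. The VSEL libraries held neutrophil and erythroid transcripts despite the lineage gate, with the levels given below. In such pools, fewer cells of a type and less RNA per cell cannot be told apart.

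Leukocytes share a set of proteins that is largely missing from other tissues. Cd52 and Cd53 are cell surface proteins, a small glycoprotein with a lipid anchor and a tetraspanin. Tyrobp (DAP12) and Fcer1g (the common gamma chain of Fc receptors) are adaptors whose cytoplasmic immunoreceptor tyrosine-based activation motif (ITAM) recruits the kinase Syk. Lcp1 (L-plastin) bundles actin, Coro1a (coronin-1A) regulates actin turnover, and Rac2 is the blood cell form of the Rac GTPases that also serve the NADPH oxidase. Laptm5 is a protein of late endosomes and lysosomes. Alox5ap (FLAP) presents arachidonic acid to 5-lipoxygenase for leukotriene synthesis, and Adam8 is a membrane metalloprotease of myeloid cells.

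The split between the VSEL libraries was not shared by all 10 genes. Cd52, Tyrobp, Lcp1, Cd53, Alox5ap and Adam8 were 74.4-fold to 654-fold higher in VSEL 2+3 than in VSEL 1, where they lay within or below the ESC range or, for Lcp1, 0.35 above the ESC mean. On the brightest probe set of each, Coro1a, Fcer1g and Rac2 were well above ESC in both libraries and differed by 1.74-fold to 5.30-fold. Laptm5 ran the other way by a small amount. The members were chosen for this difference, so it is a description and was not tested.

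Among the surface proteins, Cd52 had 13.31 and 13.43 on VSEL 2 and 3, 4.02 on VSEL 1, 13.47, 13.85 and 14.08 on the HSC arrays, and 4.89, 4.90 and 4.58 on the ESC arrays. VSEL 1 lay below every ESC array, and VSEL 2+3 lay just under the lowest HSC array. The log2 difference of VSEL 2+3 over VSEL 1 was 9.35. Cd53 had 13.07 and 12.89 on VSEL 2 and 3, 4.50 on VSEL 1, 12.90, 13.30 and 13.50 on the HSC arrays, and 4.58, 5.46 and 4.23 on the ESC arrays. VSEL 2+3 was within the HSC range and VSEL 1 within the ESC range, and the difference was 8.47.

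The ITAM adaptors parted from each other. Tyrobp had 13.56 and 13.69 on VSEL 2 and 3, 4.31 on VSEL 1, 13.02, 12.63 and 12.98 on the HSC arrays, and 4.14, 4.51 and 4.86 on the ESC arrays. Its difference was 9.31, with VSEL 2+3 above every HSC array and VSEL 1 inside the ESC range. Fcer1g had 13.01 and 12.96 on VSEL 2 and 3, 11.06 on VSEL 1, 11.62, 11.85 and 12.31 on the HSC arrays, and 4.57, 4.74 and 5.06 on the ESC arrays. VSEL 1 was thus 6.27 log2 units above the ESC mean for Fcer1g and 0.19 below it for Tyrobp.

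Among the cytoskeletal genes, Lcp1 had 12.55 and 12.68 on VSEL 2 and 3, 3.67 on VSEL 1, 12.70, 13.14 and 13.20 on the HSC arrays, and 3.24, 3.22 and 3.53 on the ESC arrays. The difference was 8.94, and VSEL 1 lay 0.35 above the ESC mean. Coro1a had 13.85 and 13.88 on VSEL 2 and 3, 11.46 on VSEL 1, 14.05, 13.93 and 13.95 on the HSC arrays, and 6.71, 6.66 and 7.19 on the ESC arrays. VSEL 1 lay between the HSC and ESC ranges, and the difference was 2.41, just past 4-fold, whereas that of Fcer1g was 1.92, just short of it. Rac2 had 13.71 and 13.85 on VSEL 2 and 3, 12.99 on VSEL 1, 13.93, 13.93 and 13.94 on the HSC arrays, and 5.60, 5.52 and 6.14 on the ESC arrays. Both VSEL libraries were within 1 log2 unit of the HSC mean, and the difference was 0.80.

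Laptm5 had 11.90 and 11.99 on VSEL 2 and 3, 12.71 on VSEL 1, 13.68, 13.60 and 13.44 on the HSC arrays, and 8.13, 7.79 and 8.25 on the ESC arrays. It was the only member lower in VSEL 2+3 than in VSEL 1, by a difference of -0.76. Alox5ap had 13.88 and 13.96 on VSEL 2 and 3, 6.15 on VSEL 1, 12.60, 12.68 and 11.84 on the HSC arrays, and 7.37, 7.63 and 7.09 on the ESC arrays. VSEL 2+3 exceeded every HSC array and VSEL 1 fell below every ESC array, a difference of 7.77. Adam8 had 11.59 and 11.78 on VSEL 2 and 3, 5.47 on VSEL 1, 9.70, 9.55 and 10.93 on the HSC arrays, and 5.41, 6.40 and 4.85 on the ESC arrays. The difference was 6.22, with VSEL 2+3 above every HSC array and VSEL 1 inside the ESC range.

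**Figure D1:**
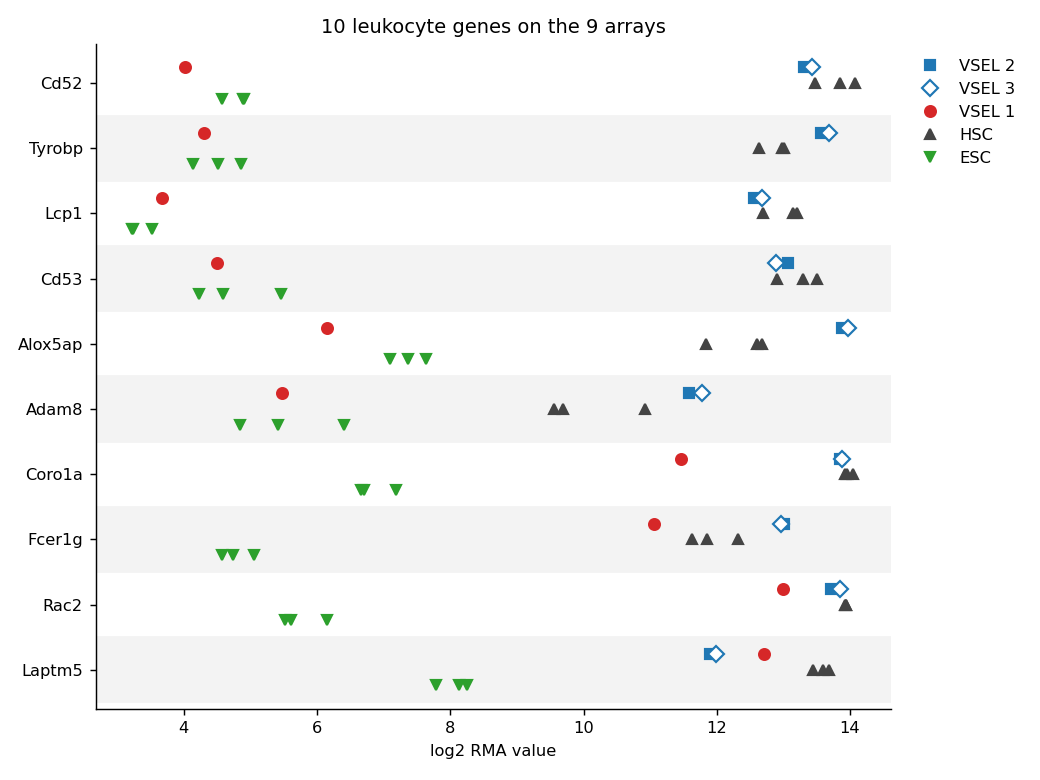
Each row is a gene and each symbol 1 array (x axis, log2 RMA value), with VSEL above HSC and ESC within a row, ordered by VSEL 2+3 minus VSEL 1. In the upper 6 rows VSEL 1 sits near or below the ESC arrays. VSEL 2 and 3 sit near the HSC arrays there, or above them for Tyrobp, Alox5ap and Adam8. In the lower 4 rows, Coro1a, Fcer1g, Rac2 and Laptm5, all VSEL arrays lie above the ESC arrays.

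In all, 7 of the 10 genes were at least 4-fold higher in VSEL 2+3 than in VSEL 1 and none was 4-fold lower. Higher by any amount were 9, all but Laptm5, as were 52% of all genes. Over all genes 7.16% were 4-fold higher and 7.01% were 4-fold lower, so at this threshold the libraries parted in both directions about equally. The median difference was 6.99 over the members and 0.02 over all genes. VSEL 1 lay below all HSC arrays for 10 members (26.3% of all genes) and above them for none (48.3%). It was below all ESC arrays for Cd52 and Alox5ap (32.1%), within their range for Cd53, Tyrobp and Adam8 (24.5%), and above all ESC arrays for Fcer1g, Lcp1, Coro1a, Laptm5 and Rac2 (43.5%). VSEL 2+3 lay above all ESC arrays for 10 (46% of all genes), above all HSC arrays for Tyrobp, Fcer1g, Alox5ap and Adam8 (51.4%), within their range for Cd53 (23.1%), and below all HSC arrays for Cd52, Lcp1, Coro1a, Laptm5 and Rac2 (25.5%). The last count was 3 after quantile normalization and 1 after cyclic loess. Since the choice of genes used these values, nothing is read from these counts. On VSEL 1 Cd52, Cd53, Tyrobp and Lcp1 were below the lower quartile of all genes on that library, 4.72, and no detection calls were used. Differences from values this low can understate the true ratio. The ESC means of Lcp1 and Tyrobp, 3.33 and 4.50, were also under the lower quartiles of the ESC arrays, 4.54 to 4.55. For such genes a VSEL value near ESC can mean little signal in both.

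Promoter windows from RefSeq (build GRCm38.p6, 250 bases before to 50 after a transcript start) were found for 6 of the 10 genes: Cd53, Lcp1, Adam8, Coro1a, Fcer1g and Laptm5. Shown are Cd53 and Lcp1, which followed ESC in VSEL 1, and Fcer1g and Laptm5, which did not, so that the windows of both kinds can be read beside each other. Capitals mark GGAAGT or its reverse complement ACTTCC, a core sequence bound by ETS factors such as PU.1.
Cd53 (chr3:106790100-106790399, minus strand) and Lcp1 (chr14:75130873-75131172, plus strand):
Cd53: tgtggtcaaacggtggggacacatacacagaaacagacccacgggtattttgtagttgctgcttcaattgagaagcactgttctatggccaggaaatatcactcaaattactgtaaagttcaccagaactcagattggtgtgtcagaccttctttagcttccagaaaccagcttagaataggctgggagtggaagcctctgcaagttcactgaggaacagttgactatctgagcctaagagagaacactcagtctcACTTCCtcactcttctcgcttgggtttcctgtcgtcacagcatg
Lcp1: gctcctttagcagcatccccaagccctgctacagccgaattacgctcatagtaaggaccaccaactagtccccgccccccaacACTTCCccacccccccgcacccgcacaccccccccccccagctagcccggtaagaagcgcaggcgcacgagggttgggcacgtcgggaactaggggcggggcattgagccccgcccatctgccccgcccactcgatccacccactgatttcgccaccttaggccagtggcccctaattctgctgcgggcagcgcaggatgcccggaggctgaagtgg
Fcer1g (chr1:171234300-171234599, minus strand) and Laptm5 (chr4:130913066-130913365, plus strand):
Fcer1g: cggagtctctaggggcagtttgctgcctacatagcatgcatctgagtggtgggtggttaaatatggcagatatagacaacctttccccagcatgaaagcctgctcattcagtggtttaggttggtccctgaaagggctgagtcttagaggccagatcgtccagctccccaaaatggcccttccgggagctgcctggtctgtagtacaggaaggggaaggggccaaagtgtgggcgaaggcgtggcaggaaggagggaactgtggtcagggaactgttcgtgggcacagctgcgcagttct
Laptm5: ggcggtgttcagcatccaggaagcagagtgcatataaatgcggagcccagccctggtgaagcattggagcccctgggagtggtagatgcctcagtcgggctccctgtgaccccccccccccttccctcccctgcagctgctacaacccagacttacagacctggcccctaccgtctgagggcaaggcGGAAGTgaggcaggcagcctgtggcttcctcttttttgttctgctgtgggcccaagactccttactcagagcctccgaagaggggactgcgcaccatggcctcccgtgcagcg
In the window nearest the annotated gene start, the sequence occurred once in Cd53, Lcp1 and Laptm5, on either strand, and not in Fcer1g, Coro1a and Adam8. Lcp1 and Coro1a have 2 windows each, and the other window of each held no match. In Laptm5 it began 63 bases before the transcript start, in Lcp1 167 bases before it and in Cd53 6 bases after it. Of all 32851 windows of this length, 23.8% held it. Lcp1, Cd53 and Laptm5, which carried it, differed between the VSEL libraries by 8.94, 8.47 and -0.76 log2 units. Adam8, Coro1a and Fcer1g, which did not, differed by 6.22, 2.41 and 1.92. A part of this sequence in the split was not tested. These matches describe the letters only.

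Several probe sets were available for 5 of the genes, and they did not all repeat the difference. Lcp1 was split on both of its probe sets: the dimmer one had 8.34 and 8.31 on VSEL 2 and 3 and 4.62 on VSEL 1, against 10.31 to 11.14 on the HSC arrays and 4.10 to 4.37 on the ESC arrays. The second Rac2 probe set had 9.29 and 9.66 on VSEL 2 and 3 and 4.87 on VSEL 1, against 8.24 to 9.01 on the HSC arrays and 3.91 to 4.43 on the ESC arrays. It differed between the libraries by 4.60, where the brighter probe set of the same gene differed by 0.80. The Rac2 difference therefore depends on the probe set.

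The second-brightest Coro1a probe set had a difference of 2.04, near that of the gene value. The dimmest had 3.18 and 2.96 on VSEL 2 and 3 and 3.10 on VSEL 1, against 8.17 to 9.14 on the HSC arrays and 3.00 to 3.32 on the ESC arrays. On it both VSEL libraries were at the ESC level, although the other probe sets put them well above it. Of the 5 Laptm5 probe sets, the second-brightest gave -0.42, and the dimmer ones gave between -0.26 and 0.11. The second Cd53 probe set had 3.15 and 3.28 on VSEL 2 and 3 and 3.00 on VSEL 1, and it was low on the other arrays apart from 5.31 on HSC 1. With the median over probe sets as the gene's value, the VSEL difference was 4.34 for Cd53, 2.70 for Rac2 and 0.11 for Laptm5, and HSC minus ESC was 4.54 for Cd53 and 1.57 for Laptm5, both still called (limma adjusted p = 0.000855 and 0.00274). What the dim probe sets detect was not tested.

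**Figure D2:**
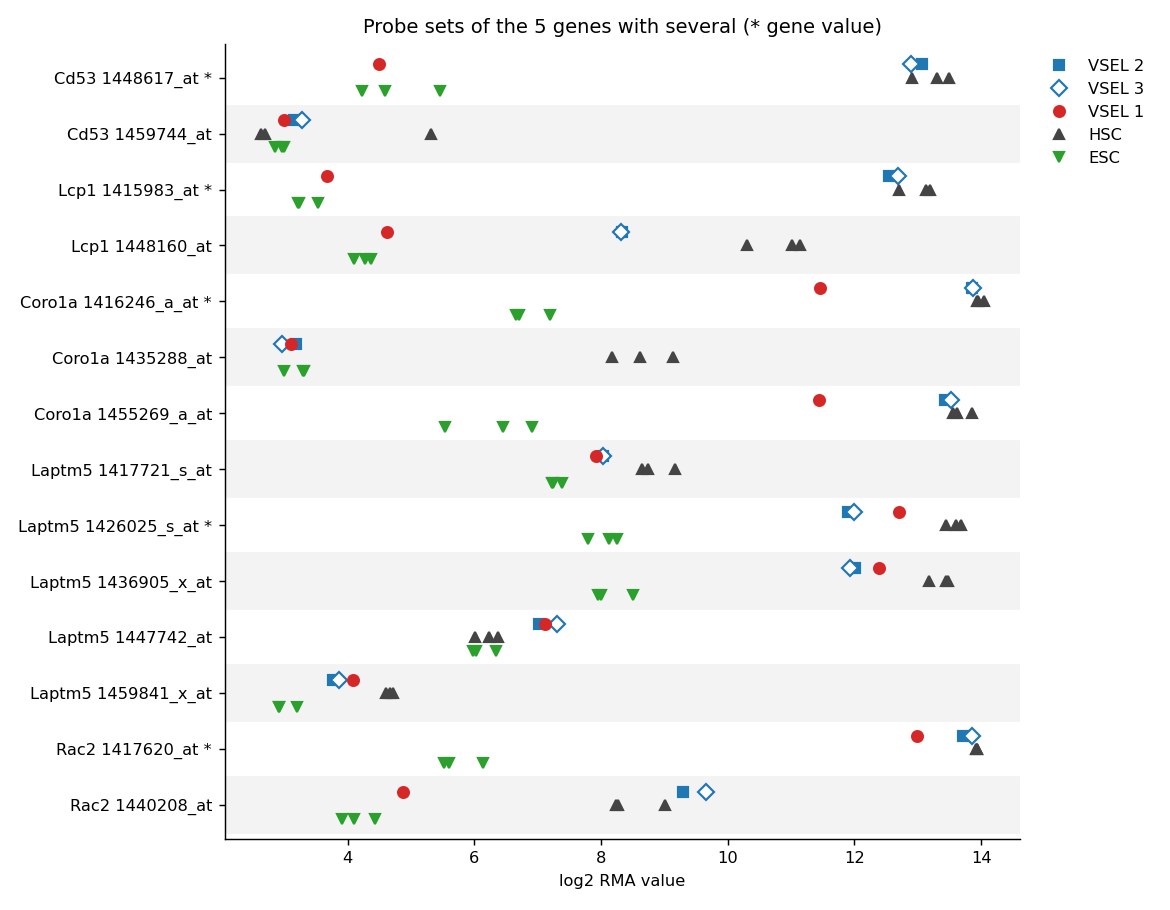
Each row is a probe set of the 5 genes that have several, an asterisk marks the one used as the gene's value, and symbols are single arrays (x axis, log2 RMA value) with VSEL above HSC and ESC. Rac2 shows a small gap between VSEL 1 and VSEL 2 and 3 on its brighter probe set and a gap of 4.60 on the dimmer one.

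The contrast of HSC with ESC is separate from the VSEL difference for which the genes were chosen, and it was tested. It asked how far these genes mark blood cells against a pluripotent line. All 10 were higher in HSC (limma with Benjamini-Hochberg adjustment over all genes, fitted on these 6 arrays), where 9.5% of all genes were called higher and 11.3% lower (20.8% in either direction). The genes were known as leukocyte genes when they were chosen, so the direction is no independent finding. Lcp1 averaged 13.01 ± 0.27 in HSC and 3.33 ± 0.17 in ESC (SD, n = 3 each), a log2 difference of 9.69 (SE 0.19, limma adjusted p = 1.01e-05). Cd52 differed by 9.01 (SE 0.21, adjusted p = 1.23e-05), Cd53 by 8.47 (SE 0.36, adjusted p = 9.85e-05) and Tyrobp by 8.37 (SE 0.23, adjusted p = 2.24e-05) in the same limma fit.

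Rac2 averaged 13.93 ± 0.0082 in HSC and 5.76 ± 0.34 in ESC (SD, n = 3 each), a log2 difference of 8.18 (SE 0.20, limma adjusted p = 1.37e-05). Fcer1g differed by 7.14 (SE 0.24, adjusted p = 4.38e-05), Coro1a by 7.13 (SE 0.18, adjusted p = 1.58e-05) and Laptm5 by 5.52 (SE 0.17, adjusted p = 3.10e-05) in that fit. The smallest differences were 5.01 for Alox5ap (SE 0.28, limma adjusted p = 0.000275) and 4.51 for Adam8 (SE 0.55, limma adjusted p = 0.00371). Every HSC array was above every ESC array for all 10 genes, as for 16.5% of all genes. The calls of Alox5ap and Adam8 ended when the VSEL libraries entered the fit (limma adjusted p = 0.128 and 0.106), since the spread then includes the split that chose the genes. That of Laptm5 ended without probe sets ending in _s_at or _x_at, which can match several transcripts: its remaining probe set gave 0.087 (limma adjusted p = 0.796).

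To place the genes among others of the same kind, every gene called higher in HSC than in ESC by at least 4 log2 units (16-fold) was taken. VSEL values entered this choice only through the probe set that stands for a gene, the one with the highest mean over all 9 arrays. These 466 genes hold the 10 members. Each VSEL library was then placed on the log2 way from the ESC mean (0%) to the HSC mean (100%), and called near ESC up to 25% and near HSC above 75%. These limits were set after the data were seen. VSEL 2+3 was near HSC for 35.2% and near ESC for 54.7% of the genes, and VSEL 1 for 25.1% and 61.4%. Values between were less common, 10.1% in VSEL 2+3 and 13.5% in VSEL 1.

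The members fell into several of these classes. Cd52, Cd53, Tyrobp, Lcp1, Alox5ap and Adam8 belonged to 67 genes (14.4%) near HSC in VSEL 2+3 and near ESC in VSEL 1, a class that also held Fcgr3, Ncf1 and Vav1. Fcer1g and Rac2 belonged to 68 (14.6%) near HSC in both. The dimmer Rac2 probe set, however, had 4.87 on VSEL 1 and 9.48 in VSEL 2+3. Its HSC mean was 8.50 and its ESC mean 4.15, so the class of Rac2 depends on the probe set. Coro1a was at 98.4% in VSEL 2+3 and 64.6% in VSEL 1, and Laptm5 at 70.5% and 84.4%. No member was among the 196 genes (42.1%) near ESC in both. Nor was any among the 39 (8.37%) near ESC in VSEL 2+3 and near HSC in VSEL 1, which held Dock2, Lcp2, Rhoh and Mgst2. Which of these classes the members fall in follows in part from how they were chosen. The examples named here belong to the lists described next.

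**Figure D3:**
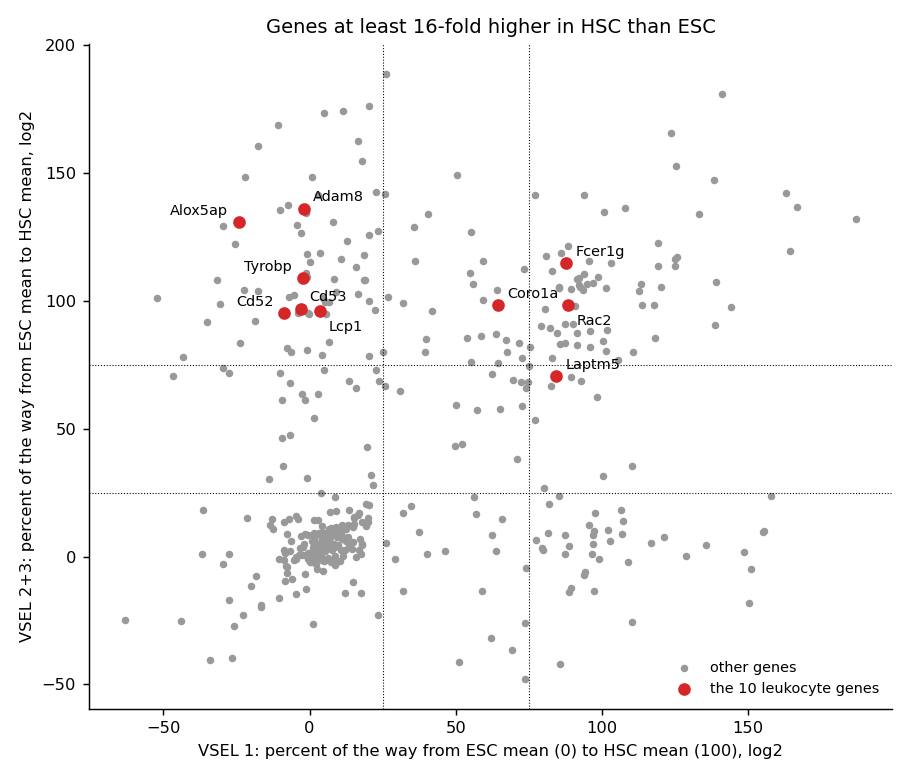
Each point is 1 of 466 genes at least 16-fold higher in HSC than in ESC, read from its brightest probe set. Axes give the position of VSEL 1 (x) and VSEL 2+3 (y) as a percent of the log2 way from the ESC mean to the HSC mean, dotted lines mark 25% and 75%, and the red points are the 10 leukocyte genes, 6 of them in the upper left and none in the lower right.

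Other genes of the members' pathways were described in the same way, from lists. For comparison with each list below, 7.16% of all genes were at least 4-fold higher in VSEL 2+3 and 7.01% in VSEL 1. The HSC against ESC test called 9.5% of all genes higher and 11.3% lower. In the ITAM list, 6 of 22 measured genes were at least 4-fold higher in VSEL 2+3, 3 were 4-fold higher in VSEL 1 and 13 lay within 4-fold, with a median difference of -0.068. Fcgr3, an activating IgG receptor that signals through Fcer1g, had 11.88 and 11.99 on VSEL 2 and 3 and 4.14 on VSEL 1, and Trem3, a receptor of the TREM family, which pairs with Tyrobp, 12.29 and 12.30 against 5.78. Plcg2, a phospholipase downstream of Syk, had 11.72 and 12.02 on VSEL 2 and 3 and 6.99 on VSEL 1. The adaptors Blnk and Lcp2 (SLP-76) ran the other way. Blnk, of B cells, had 7.26 and 7.02 on VSEL 2 and 3 and 12.94 on VSEL 1. Lcp2 had 5.68 and 5.98 on VSEL 2 and 3 and 10.04 on VSEL 1, against an HSC range of 10.87 to 11.75. In HSC against ESC, 12 of the 22 were called higher and none lower, led by Lcp2 at 6.85 (SE 0.29, limma adjusted p = 9.09e-05), Hcst at 6.52 and Cd247 at 6.15. Hcst (DAP10), another adaptor, had 10.32 and 10.45 on VSEL 2 and 3 and 7.72 on VSEL 1, while Cd247, the T cell receptor zeta chain, was at most 4.79 on every VSEL array.

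The list of Rac, actin and NADPH oxidase genes had 5 of 19 genes at least 4-fold higher in VSEL 2+3 and 4 higher in VSEL 1, with a median difference of 0.47. Ncf1, a cytosolic oxidase subunit, had 12.44 and 12.48 on VSEL 2 and 3, 5.40 on VSEL 1 and 10.28 to 11.11 on the HSC arrays. Capg, an actin capping protein, had 10.38 and 10.57 on VSEL 2 and 3 and 5.69 on VSEL 1. Vav1, an activator of Rac GTPases, had 9.69 and 9.65 on VSEL 2 and 3 and 5.24 on VSEL 1. Rhoh, a GTPase of blood cells, had 3.98 and 4.25 on VSEL 2 and 3 and 9.99 on VSEL 1, and Dock2, another Rac activator, 6.17 and 6.69 against 10.67. Vav1 and Dock2, both activators of Rac2, thus lay in opposite classes, while Rac2 itself was high in both libraries on its brighter probe set. In HSC against ESC 17 of the 19 were called higher and none lower, against 9.5% and 11.3% of all genes. Dock2 was higher by 6.87 (SE 0.16, limma adjusted p = 1.33e-05), Arhgdib by 6.62 and Lsp1 by 6.32.

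Of 13 genes of leukotriene and eicosanoid synthesis, 3 were at least 4-fold higher in VSEL 2+3 and 2 in VSEL 1, with a median of -0.28. Alox5, the 5-lipoxygenase served by Alox5ap, had 10.49 and 10.70 on VSEL 2 and 3 and 7.01 on VSEL 1, against an HSC mean of 8.36 and an ESC range of 6.49 to 6.66. Alox15 had 10.99 and 11.11 on VSEL 2 and 3 and 5.95 on VSEL 1. Mgst2 and Mgst3, of the same membrane protein family as Alox5ap, were lower in VSEL 2+3 than in VSEL 1 by differences of -5.17 and -4.19. In HSC against ESC 6 of the 13 were called higher and Mgst3 lower, by a log2 difference of -2.43 (limma adjusted p = 0.0499). Mgst2 was higher by 6.13 and Alox15 by 3.19 (limma adjusted p = 0.000429 and 0.0237).

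Tetraspanins other than Cd53 were 4-fold higher in VSEL 2+3 for 2 of 9 genes, Tspan14 by 4.13 and Tspan4 by 2.83, and in VSEL 1 for none. In HSC against ESC 2 of the 9 were called higher, Cd37 by 5.46 and Cd82 by 5.21, and 4 lower, among them Cd151 by a log2 difference of -3.33 (limma adjusted p = 0.000218, 0.00124 and 0.0081). Of 8 other ADAM protease genes none was 4-fold higher in VSEL 2+3 and Adam19 was lower by a difference of -4.61. Over all genes the shares past 4-fold were 7.16% and 7.01%. Only Adam10 of these 8 was called in HSC against ESC, higher by 2.63 (limma adjusted p = 0.0168).

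Of 10 relatives of the members from the same protein families, 4 were at least 4-fold higher in VSEL 2+3, none in VSEL 1, and 6 lay within 4-fold. Rac1, the ubiquitous Rac GTPase, had 12.51 and 12.55 on VSEL 2 and 3 and 8.45 on VSEL 1, against 11.28 to 11.75 on the HSC arrays and 11.22 to 11.40 on the ESC arrays. VSEL 1 was thus below both other cell types for Rac1, a gene not confined to leukocytes. The coronin genes Coro7 and Coro2a differed between the VSEL libraries by 4.51 and 4.34 and Coro1b by 2.96, while Coro1c differed by 0.38. The plastins Pls1 and Pls3 differed by -0.0069 and 0.69, against 8.94 for Lcp1, and Rac3 by -0.026. Laptm4a differed by -0.037 and Laptm4b by 1.89.

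In HSC against ESC 3 of the 10 relatives were called higher, Coro7 by 2.64, Coro2a by 2.11 and Coro1b by 0.79 (limma adjusted p = 0.0293, 0.0212 and 0.0375). Laptm4b and Pls3 were lower, by log2 differences of -4.49 and -3.52 (limma adjusted p = 0.00084 and 0.00391), so these relatives of Laptm5 and Lcp1 ran opposite to them. Rac1, Rac3, Pls1, Coro1c and Laptm4a were not called, with log2 differences between -0.83 and 0.44.

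Of 9 transcription factor genes of blood cells, 2 were at least 4-fold higher in VSEL 2+3 and none in VSEL 1. Cebpb, a factor of myeloid cells, had 11.83 and 11.31 on VSEL 2 and 3 and 5.58 on VSEL 1, and Myb, of blood progenitors, 10.91 and 10.98 against 6.51. Spi1, which encodes PU.1, had 11.53 and 11.66 on VSEL 2 and 3 and 9.77 on VSEL 1, and Ikzf1 (Ikaros) 11.19 and 11.30 against 10.09. Runx1 had 9.05 and 8.88 on VSEL 2 and 3 and 7.71 on VSEL 1. Gfi1 and Fli1 were at most 3.39 on every VSEL array, with HSC means of 9.15 and 8.08. In HSC against ESC 8 of the 9 were called higher and none lower, led by Ikzf1 at 7.09 (SE 0.13, limma adjusted p = 8.45e-06), Gfi1 at 6.00 and Fli1 at 5.35.

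**Figure D4:**
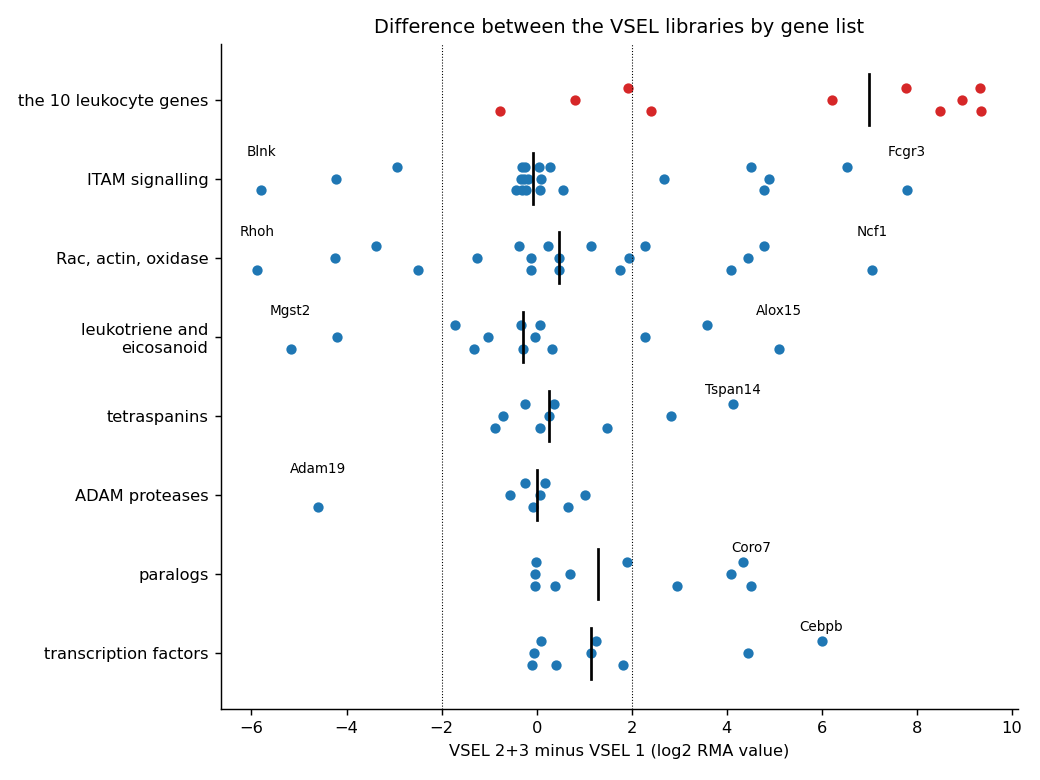
Each point is a gene and the x axis is VSEL 2+3 minus VSEL 1 in log2 RMA units, with vertical bars at list medians, dotted lines at 4-fold and the names of the extreme genes past it. The 10 leukocyte genes, in red, reach 9.35 on the right, while the ITAM, Rac and leukotriene lists have genes past 4-fold on both sides.

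Markers of single blood lineages differed between the VSEL libraries in different directions and to different degrees. Their part in the split was not tested. Neutrophil markers were high in both libraries, with medians over 10 measured genes of 14.59 in VSEL 2+3 and 13.22 in VSEL 1, against 13.76 to 13.89 on the HSC arrays and 4.57 to 4.85 on the ESC arrays. On the linear scale they summed to 211904 in VSEL 2+3 and 75969 in VSEL 1. Against 115880 to 135037 on the HSC arrays, VSEL 2+3 was higher and VSEL 1 lower. S100a8, a transcript of mature and maturing neutrophils, had 14.91 and 14.77 on VSEL 2 and 3 and 13.50 on VSEL 1. Of the 10 neutrophil genes, 4 were at least 4-fold higher in VSEL 2+3 (7.16% of all genes) and none in VSEL 1 (7.01%). Mpo, Elane and Mmp9 differed by 2.62, 2.07 and 3.03. Mmp8, a late granule collagenase, differed most, with 11.44 and 11.47 on VSEL 2 and 3 and 4.20 on VSEL 1.

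Monocyte and macrophage markers had medians of 5.78 in VSEL 2+3 and 5.46 in VSEL 1, under the all-gene medians of 6.10 and 6.08, and 7 of 12 lay under that median in each. Csf1r and Ctss were higher in VSEL 2+3 than in VSEL 1 by 2.99 and 4.59, C1qb by 3.19, and C1qa lower by a difference of -4.91. All 4 measured basophil and mast cell markers were under the all-gene median in both VSEL libraries, Fcer1a included, so Fcer1g was high where the alpha chain of its IgE receptor was not. Of 9 T and NK markers 6 lay under it in VSEL 2+3 and 7 in VSEL 1, while Nkg7 had 11.11 and 11.35 on VSEL 2 and 3 and 4.95 on VSEL 1.

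Erythroid and B lineage markers had lower medians in VSEL 2+3 than in VSEL 1, mostly by less than 4-fold. Of 6 erythroid genes Klf1 was at least 4-fold higher in VSEL 1 and 5 lay within 4-fold, and of 9 B lineage genes Dntt was and 8 lay within it. The median difference over the 9 B lineage genes was -1.42. Ebf1 and Pax5 among them differed by 0.0012 and 0.20, but both lay under the all-gene median in both VSEL libraries. The erythroid median over 6 genes was 11.82 in VSEL 2+3 and 13.32 in VSEL 1, with 7.91 to 9.30 on the HSC arrays, and their linear sums were 21800 and 61872. The B lineage median over 9 genes was 9.49 in VSEL 2+3 and 11.00 in VSEL 1, against 6.90 to 7.72 on the HSC arrays, and the linear sums were 16436 and 40684. The 8 pluripotency markers did not part the libraries, with medians of 9.83 in VSEL 2+3 and 9.97 in VSEL 1. Their medians were 3.67 to 3.88 on the HSC arrays and 12.70 to 12.78 on the ESC arrays. Linear sums of these markers were 12567 in VSEL 2+3 and 11350 in VSEL 1. Platelet, endothelial and stromal lists differed by medians of -0.0041, -0.55 and 0.26, and Pecam1 by -4.70. The HSC list differed by 0.57, with Cd34 higher in VSEL 2+3 by 6.05.

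The genes whose levels followed the mean of the members most closely over the 8 libraries, among 3352 other genes with a range of at least 4 log2 units, were Cybb (r = 0.995), H2-Aa (0.992), Vsir (0.991), Slfn1 (0.991), Fpr2 (0.990), Prex1 (0.990), Atp8b4 (0.989), Uba7 (0.987), AB124611 (0.987) and St8sia4 (0.986). These correlations over libraries of 3 cell types are descriptions without a test. On VSEL 1 the mean of the members was 7.63, over members from 3.67 to 12.99. It lay between the low and the high members there, where no member had such a value. Cybb, the catalytic NADPH oxidase subunit, had 9.27 in VSEL 2+3 and 5.18 in VSEL 1, 9.01 to 9.45 on the HSC arrays and 3.96 to 4.42 on the ESC arrays. H2-Aa, an MHC class II chain, had 12.48 in VSEL 2+3 and 6.01 in VSEL 1. Each member's own correlation with the mean of the other 9 over these libraries was between 0.861 for Laptm5 and 0.981 for Lcp1, so the 4 less split genes are still ordered mainly by HSC against ESC.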

How the data were processed

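The authors deposited log2 expression values per probe set of an Affymetrix mouse array; RMA and Partek 6.5 were used, per the submitters' processing notes. The arrays normalized together, and the settings, were not given in the sources used here. Deposited values entered each step unchanged. Of 45101 probe sets, 35890 were listed in the gene annotation, and those not listed were left out. Array controls (64) and 932 probe sets annotated to several genes were left out too. The 34945 with 1 gene gave 18193 genes, each taken from the probe set whose mean over the 9 arrays was highest. Symbols of 34741 probe sets were updated through RefSeq (GRCm38.p6).

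The HSC minus ESC contrast used limma 3.58.1 under R 4.3.3 (lmFit, eBayes, two-sided, 4 residual degrees of freedom, estimated prior 1.46), adjusted by Benjamini-Hochberg over all genes and called at an adjusted p of 0.05. Because VSEL arrays chose the members, they entered no test apart from an alternative fit with all 3 cell types. The limma script was tested on simulated data. Precision is limited by the number of arrays. The members and lists were chosen with earlier results of these data known. The text names all members and their relatives and draws other pathway genes from, per list, up to 4 genes with the largest VSEL difference and up to 3 called genes with the largest HSC minus ESC difference. Other pathway and marker genes in the text were chosen after their values were seen. Likeness used the 10 highest correlations.

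Alternatives were other normalizations, probe set rules, filters, variance models, a replicate block and leaving out arrays. Same-numbered HSC and ESC arrays did not deviate together (r of -0.029 to -0.023 over genes), so the numbers were not taken as pairs.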

Additional observations from a re-analysis of the deposited data

How the results depend on the processing

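All 10 members stayed higher in HSC than in ESC by a call under each alternative apart from Alox5ap and Adam8 with all 3 cell types in the fit (adjusted p = 0.128 and 0.106) and Laptm5 without probe sets ending in _s_at or _x_at (0.796). With the replicate block 10 members and 2921 of 18193 genes were called, against 3780 without it, and leaving out single arrays gave 10 members and 2895 to 3280 genes. Same-numbered arrays correlated at -0.029 to -0.023, so the block pairs arrays by number only. The median VSEL 2+3 minus VSEL 1 difference of the members, 6.99, became 5.28 with the median over probe sets. The share of all genes at least 4-fold higher, 7.16%, became 13.4% among genes above the median and 11.6% at 2-fold. The Laptm5 difference of -0.76 changed sign to 0.11 with the median over probe sets and 0.043 without the _s_at and _x_at probe sets. Members with VSEL 2+3 below all HSC arrays numbered 3 after quantile normalization and 1 after cyclic loess, against 5. Beyond what the construction of an alternative shows, the cause was not tested. With the median over probe sets the VSEL difference was 4.34 for Cd53 against 8.47, and 2.70 for Rac2 against 0.80, which passes 4-fold. HSC minus ESC was then 4.54 for Cd53 against 8.47 and 1.57 for Laptm5 against 5.52. Other counts over members and genes stayed within 1.5 times. The VSEL difference rests on 1 library against 1, and dim values are limited by signal over background.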
